A study of Homo sapiens with 2 samples.

Results

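Aminoacyl-tRNA synthetases are the enzymes that load each amino acid onto its transfer RNA. The 38 genes described here encode 19 cytosolic synthetases or synthetase subunits, 16 mitochondrial synthetases and 3 non-enzymatic scaffold proteins. They were chosen by gene symbol and matched to the Ensembl identifiers of the deposited table, so 38 of its 63677 genes are covered, and all 38 had a row. RNA was measured in HGC-27, an established line from a human gastric carcinoma, 48 hours after transfection. The control library came from cells given the empty vector pcDNA3.1, and the lncPSCA library from cells given pcDNA3.1 carrying the long non-coding RNA lncPSCA. Both cultures therefore share the plasmid backbone and the transfection, and the labels name no other genetic change. Each group is 1 library, so every difference below is between 2 libraries, carries a counting interval only and has no test.

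Cells keep separate sets of synthetases for the cytosol and for the mitochondrion, and nuclear genes encode both sets. Several cytosolic enzymes sit in a multi-synthetase complex that is held together by scaffold proteins. When amino acids run short or other stresses lead to phosphorylation of the initiation factor eIF2, the transcription factor ATF4 is made, and its known targets include many cytosolic synthetase genes beside amino acid synthesis and transport genes. WARS1, the tryptophan enzyme, is also a classical interferon-induced gene.

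Depth was 21552098 counts for control and 23016646 for lncPSCA. Levels are CPM, reads scaled to library size with trimmed-mean factors, and a gene with a mean of at least 1 CPM is called measured. All 38 members were measured, among 15440 genes in all. Markers of the labelled epithelial tissue were scarce: KRT8 had 66 and 58 reads, EPCAM 7 and 7, and KRT18 4 and 0. CLDN7 had 64 and 148 reads and was 2.08-fold higher, and the 6 epithelial markers together had 168 and 233 reads, while 4 of 5 gastric markers had no reads in either library. Of the mesenchymal markers, VIM had 54877 and 60997 reads, but CDH2 had only 4 and 6 and was not measured. All 5 fibroblast markers were measured, with summed levels of 1419 CPM in control and 1357 CPM in lncPSCA. Single markers differed more: FN1 had 554 and 1448 reads (2.35-fold higher), PDGFRA 453 and 847 (1.68-fold) and COL1A2 259 and 394 (1.37-fold). Their part in the results below was not tested. No endothelial marker was measured, and PTPRC, which marks blood cells, had 9 and 4 reads.

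The same short element lies near the RefSeq start of 6 cytosolic genes, and these promoter stretches are shown because ATF4 is known to bind this element together with C/EBP proteins. It is the strict core TGATGCAA of the C/EBP-ATF response element (TGATGNAAN), which reads TTGCATCA on the opposite strand. Windows of 250 bases before and 50 bases after the start were searched on both strands, and RefSeq (GRCh38.p14) gave at least 1 window for 33 of the 38 members. Capitals mark the core in the lines below, which run 5′ to 3′ in the direction of the gene and end at most 30 bases past the start.
AARS1, chr16:70289654-70289733, minus strand: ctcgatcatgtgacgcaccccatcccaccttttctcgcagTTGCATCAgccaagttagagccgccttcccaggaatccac
CARS1, chr11:3057394-3057473, minus strand: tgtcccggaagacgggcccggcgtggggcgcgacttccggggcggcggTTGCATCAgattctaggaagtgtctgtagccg
IARS1, chr9:92293671-92293750, minus strand: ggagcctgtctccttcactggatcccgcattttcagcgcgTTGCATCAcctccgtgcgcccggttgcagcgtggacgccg
MARS1, chr12:57488018-57488097, plus strand: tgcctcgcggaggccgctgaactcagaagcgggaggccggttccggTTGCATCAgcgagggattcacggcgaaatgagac
NARS1, chr18:57621807-57621886, minus strand: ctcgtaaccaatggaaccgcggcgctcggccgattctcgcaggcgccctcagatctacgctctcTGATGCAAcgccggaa
TARS1, chr5:33440915-33440994, plus strand: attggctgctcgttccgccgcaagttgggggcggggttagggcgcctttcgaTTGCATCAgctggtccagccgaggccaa

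The core was found in 304 of all 35116 RefSeq windows (0.866%), and 295 of 27305 genes (1.08%) had it in at least 1 window. It was in 6 of the 16 cytosolic genes with a window and in none of the 14 mitochondrial or 3 scaffold genes with one. In 5 of the 6 genes the match lay within 22 bases of the start, and in AARS1 it lay 180 to 187 bases before it. The looser element TGATGNAAN, which contains the core, was in 3.61% of all windows and 4.45% of genes, and added 1 cytosolic gene (GARS1) and 1 mitochondrial gene (YARS2). A match describes letters only and says nothing of whether a factor was bound.

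WARS1 has an upstream and a downstream RefSeq start, and its downstream window is shown because it holds both elements known from interferon-induced genes. Capitals mark TTCTGAGAA, a match to the gamma-activated site TTCNNNGAA, and then GAAACTGAAA, a match to the consensus of the interferon-stimulated response element. These letters lie 134 to 142 and 46 to 55 bases before the start.
WARS1, chr14:100375348-100375597, minus strand: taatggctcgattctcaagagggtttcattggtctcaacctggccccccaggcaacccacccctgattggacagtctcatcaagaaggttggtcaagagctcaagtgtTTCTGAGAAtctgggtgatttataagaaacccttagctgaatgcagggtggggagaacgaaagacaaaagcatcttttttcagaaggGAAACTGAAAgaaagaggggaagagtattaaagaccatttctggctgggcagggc

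Alone, the gamma-activated letters were in 7.66% of all windows and the interferon-stimulated letters in 3.57%, and 0.439% of windows held both. No other member had both in 1 window. The gamma-activated letters also occurred in windows of CARS1, TARS1, PARS2 and WARS2, and the interferon-stimulated letters in those of EARS2.

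No member differed by 2-fold between the libraries. By counting error alone, the interval of the fold lay above 1 for 11 of the 19 cytosolic genes and below 1 for 5, beside 27.0% and 32.1% of all measured genes. Of the size rules used, the stricter asked for at least a 2-fold difference with a counting interval wholly beyond 1.5-fold, and 0 of 38 members met it in either direction, beside 3.02% of all measured genes higher and 0.596% lower. The looser asked for at least 1.5-fold with an interval wholly beyond 1.2-fold. It was met by WARS1, which was higher, and by EEF1E1, which was lower, beside 8.82% of all measured genes higher and 4.59% lower. Neither share of the members exceeded its background. With an assumed coefficient of variation of 0.2 between cultures, which was not measured here, neither gene met the looser rule.

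Counting error alone separated more members from equality. Among all measured genes, the interval of the fold lay wholly above 1 for 27.0% and wholly below 1 for 32.1%. It lay wholly above 1 for 14 of 38 members and wholly below 1 for 14, and it included 1 for 10. These counts say that reads sufficed to tell the 2 libraries apart, not that cultures would differ again.

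**Figure D1:**
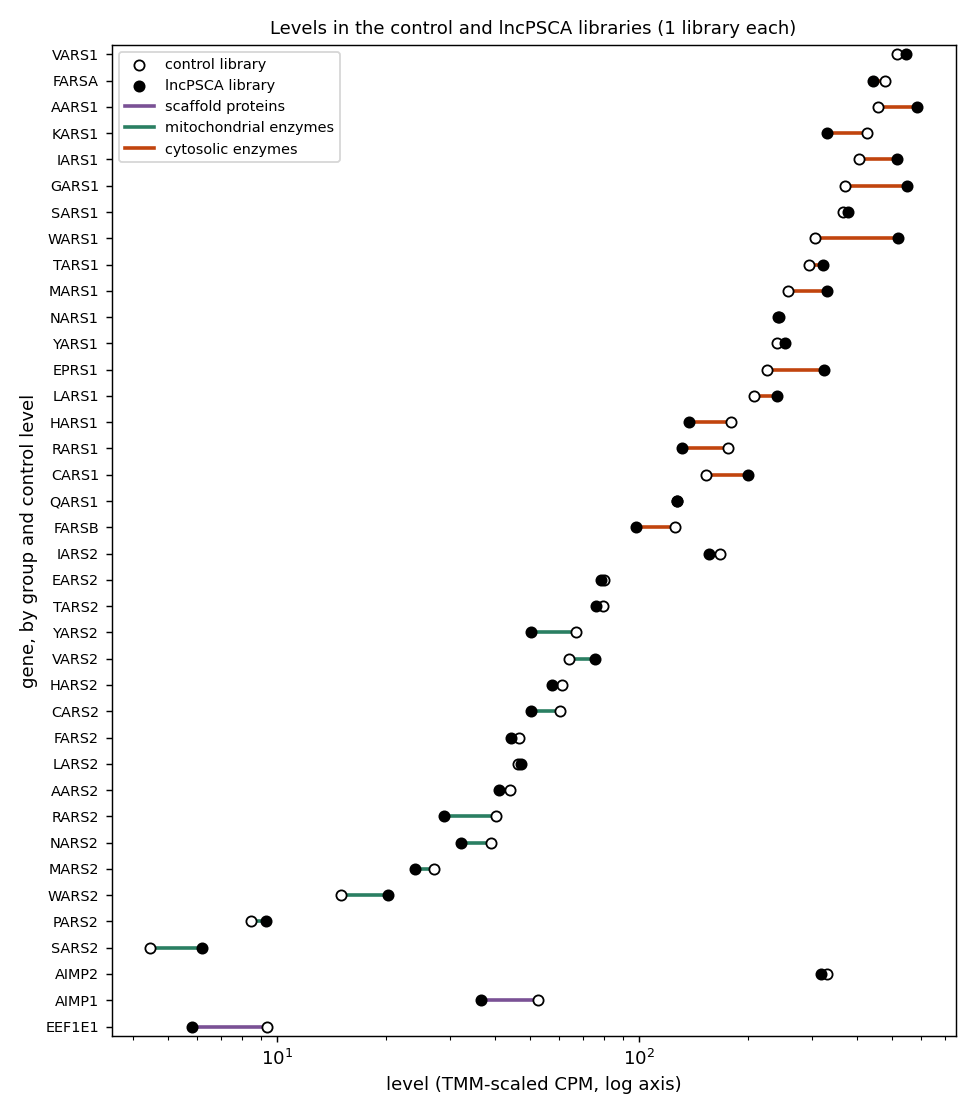
Level of each member in the control library (open circles) and the lncPSCA library (filled circles), in CPM on a log axis, with 1 row per gene and lines coloured by group. In control the cytosolic enzymes lay between 125 and 516 CPM and the mitochondrial ones between 4.46 and 167 CPM.

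Cytosolic enzymes were far more abundant than mitochondrial ones in both libraries. Together the 19 cytosolic genes took 0.543% of all counts in control and 0.640% in lncPSCA, and the 16 mitochondrial genes 0.0831% and 0.0814%. Per kilobase of the longest GENCODE transcript, the median level was 77.9 CPM in control and 78.6 CPM in lncPSCA for cytosolic genes, and 13.7 and 12.6 CPM for mitochondrial ones. On that scale the cytosolic gene was the more abundant partner in all 17 pairs that serve the same amino acid. The gap in control ran from 1.55-fold for CARS1 over CARS2 to 89.7-fold for SARS1 over SARS2. The low level of SARS2 is uncertain, since 46.2% of its exon bases lie under a second gene model on the same strand in GENCODE release 29, and such reads may not have been counted.

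Among cytosolic genes, WARS1 had the highest ratio. Its 6466 reads in control and 12186 in lncPSCA correspond to 306 and 518 CPM, a 1.69-fold difference (95% counting interval 1.64 to 1.74). This placed WARS1 at the 93.0th percentile of the log2 ratios of all measured genes. GENCODE release 29 has an antisense gene over 6.06% of its exon bases, which itself had 820 and 1688 reads, and whether the counting used strand is unknown. WARS1 kept a log2 ratio between 0.73 and 0.92 over the 6 other scalings, pseudocounts and centrings tried.

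GARS1, the glycine enzyme of both compartments, came next. It had 7814 and 12876 reads, or 370 and 548 CPM, a fold of 1.48 (1.44 to 1.52), just short of the looser rule. EPRS1, which joins the glutamate and proline enzymes in 1 protein, stood at 225 and 324 CPM, with a fold of 1.44 (1.39 to 1.49). Both genes met the looser rule under total-count scaling and when ratios were centred along mean expression, and GARS1 also when they were centred along length and GC content.

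Another 4 cytosolic genes formed a tight group near 1.3-fold. CARS1, the cysteine enzyme, went from 153 to 200 CPM (fold 1.31, 1.25 to 1.37), and AARS1, the alanine enzyme, from 457 to 585 CPM (1.28, 1.25 to 1.32). For MARS1, the methionine enzyme, the levels were 258 and 330 CPM (1.28, 1.24 to 1.32), and for IARS1, the isoleucine enzyme, 405 and 515 CPM (1.27, 1.24 to 1.31). The 4 intervals overlap one another, so counting error does not order them. MARS1 overlaps the stress gene DDIT3, which encodes the transcription factor CHOP, on the opposite strand over 5.05% of its exon bases. DDIT3, named after its value was seen, had 1202 and 1951 reads, fewer than MARS1 with 5442 and 7756.

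Smaller ratios followed for LARS1, the leucine enzyme (fold 1.16, 1.11 to 1.204), and TARS1, the threonine enzyme (1.10, 1.06 to 1.13). VARS1, the valine enzyme, was at 516 and 545 CPM and YARS1, the tyrosine enzyme, at 240 and 253 CPM, each with a fold of about 1.05 and an interval just above 1. For SARS1, the serine enzyme, the interval included 1 (fold 1.03, 0.999 to 1.06). NARS1, the asparagine enzyme, had 241 and 243 CPM and QARS1, the glutamine enzyme, 127 in both, and the sign of their log2 ratios (0.012 and 0.004) changed under upper-quartile scaling.

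The other 5 cytosolic genes had ratios below 1 beyond counting error, as did 32.1% of all measured genes. RARS1, the arginine enzyme, had 3715 and 3092 reads, or 176 and 132 CPM, 1.34-fold lower (1.28 to 1.40), the lowest cytosolic ratio. HARS1, the histidine enzyme, went from 179 to 137 CPM, 1.30-fold lower (1.24 to 1.37). KARS1, the lysine enzyme that serves both compartments, had 8980 and 7763 reads, or 426 and 330 CPM, 1.29-fold lower (1.25 to 1.33). None of these met a size rule. The dual genes GARS1 and KARS1 thus lay on opposite sides of equality.

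Phenylalanyl-tRNA synthetase is built from an alpha subunit, FARSA, and a beta subunit, FARSB. FARSA was at 477 and 441 CPM, a log2 ratio of -0.11 that turned to 0.05 when ratios were centred along mean expression. FARSB was at 125 and 98.0 CPM, 1.28-fold lower (1.21 to 1.35).

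**Figure D2:**
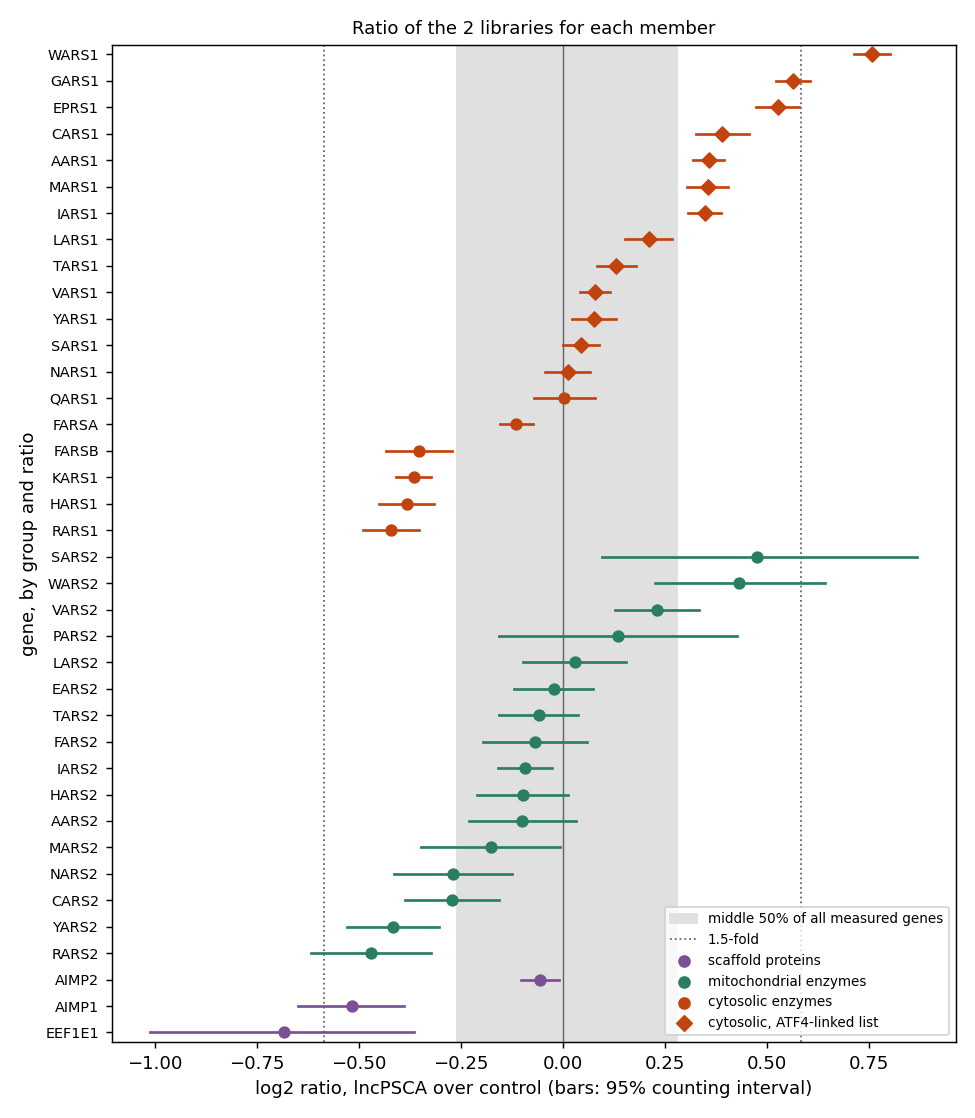
Log2 ratio of lncPSCA over control for each member, with 95% counting intervals as bars; diamonds are cytosolic genes on the ATF4-linked list, the grey band holds the middle 50% of all measured genes, and dotted lines mark 1.5-fold. WARS1 lies past the dotted line above 0 and EEF1E1 past the one below 0, and all 13 diamonds lie above 0.

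Cytosolic genes were also grouped by a list of synthetases known as ATF4 targets. The list was written from general knowledge but with earlier results of these data known, including those on other stress genes, so the split is a description and no independent support. It holds AARS1, CARS1, EPRS1, GARS1, IARS1, LARS1, MARS1, NARS1, SARS1, TARS1, VARS1, WARS1 and YARS1. All 13 had a log2 ratio above 0, or 12 under upper-quartile scaling, and the interval lay above 1 for 11 of them. Of the 6 other cytosolic genes, 1 was above 0 (0 under upper-quartile scaling, 2 when centred along mean expression) and the interval lay below 1 for 5. Among all measured genes 48.1% were above 0, and the interval lay above 1 for 27.0% and below 1 for 32.1%. The lowest of the 13 (NARS1, 0.012) and the highest of the 6 (QARS1, 0.004) were almost equal, so the groups adjoin.

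The median log2 ratio was 0.35 for the 13 and -0.36 for the 6, beside -0.02 for all measured genes. Summed over genes, the 13 held 4038 CPM in the control library against 5000 CPM with lncPSCA. That is a fold of 1.24 (1.23 to 1.25). For the 6 the sums were 1509 and 1265 CPM and the fold was 0.838 (0.825 to 0.851). The difference of the medians was 0.71 and fell to 0.56 when ratios were centred along transcript length and GC content. Longest transcripts had a median length of 3592 bases in the 13 and 2624 bases in the 6. Across all measured genes with a length, ratio and length had a Spearman correlation of 0.236, and across the 19 cytosolic genes one of 0.468, where genes share both libraries and are not replicates.

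The promoter core did not order the 13 by size. The 6 genes with the core had log2 ratios from 0.01 to 0.39, with a median of 0.35. The 4 with a window but no core (EPRS1, GARS1, SARS1 and WARS1) ran from 0.04 to 0.76, with a median of 0.55. LARS1, VARS1 and YARS1 had no window.

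Membership of the multi-synthetase complex gave no such split. Its 7 enzymes ranged from RARS1 (-0.42) to EPRS1 (0.53) with a median of 0.21, and the 12 free cytosolic genes from HARS1 (-0.38) to WARS1 (0.76) with a median of 0.08. By summed reads the order was the opposite, with a fold of 1.10 (1.08 to 1.11) for the complex enzymes and 1.146 (1.14 to 1.16) for the free ones. Synthetases also fall into 2 structural classes with unrelated catalytic folds. The 10 cytosolic class I genes, which include EPRS1, had a median of 0.28 and the 9 class II genes one of 0.01, which became -0.013 under upper-quartile scaling. In the mitochondrial set the class medians were -0.09 and -0.07.

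The scaffold genes had ratios below 1, beyond counting error in all 3, though that of AIMP2 was small and depended on the scaling. Among all measured genes 32.1% were lower beyond counting error. EEF1E1, which encodes the scaffold protein known as p18 or AIMP3, had 198 reads in control and 137 in lncPSCA, or 9.38 and 5.83 CPM. It was 1.61-fold lower (1.29 to 2.02), at the 3.6th percentile of all measured genes, and fell short of the looser rule when ratios were centred along length and GC content. A read-through gene shares 18.7% of its exon bases in GENCODE release 29 and had 0 reads, so the assignment of shared reads is uncertain. AIMP1, the scaffold protein p43, went from 52.5 to 36.6 CPM, 1.43-fold lower (1.31 to 1.57). AIMP2, the scaffold protein p38, had 6946 and 7446 reads, or 329 and 317 CPM, and its log2 ratio of -0.06 changed sign under 3 of the alternatives. EIF2AK1, an eIF2 kinase gene at 6932 and 7722 reads, overlaps 28.9% of the exon bases of AIMP2 on the opposite strand.

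Mitochondrial enzymes were spread around equality. Their median log2 ratio was -0.08, which became 0.017 when ratios were centred along mean expression. Of the 16, 5 lay above 0, or up to 8 under the alternatives, beside 48.1% of all measured genes. No mitochondrial gene met either size rule, beside 8.82% of all measured genes higher and 4.59% lower by the looser one. With 16 genes, that absence is not read as a result about the set. The summed level of the mitochondrial genes was 849 CPM against 797 CPM with lncPSCA, and the fold was 0.939 (0.920 to 0.958).

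SARS2, the serine enzyme, had the highest mitochondrial ratio on few reads. Its 94 and 146 reads, or 4.46 and 6.21 CPM, give a fold of 1.39 with a wide interval (1.07 to 1.83). MRPS12, with 1826 and 1878 reads, overlaps 10.8% of the exon bases of SARS2 on the opposite strand. Whether the counting used strand is unknown. A second gene model covers 46.2% on the same strand, so this ratio is uncertain. WARS2, the tryptophan enzyme, had 317 and 477 reads, or 15.0 and 20.3 CPM, a fold of 1.35 (1.17 to 1.56). VARS2, the valine enzyme, had levels of 64.1 and 75.3 CPM and a fold of 1.17 (1.09 to 1.26). GTF2H4 covers 21.99% of the exon bases of VARS2 on the same strand in GENCODE release 29 and had 3 reads in each library, so the assignment of shared reads is uncertain. For SARS2, WARS2 and VARS2 the interval lay above 1, as for 27.0% of all measured genes.

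At the other end, RARS2, the arginine enzyme, had 847 and 681 reads, or 40.1 and 28.97 CPM, 1.39-fold lower (1.25 to 1.54). YARS2, the tyrosine enzyme, went from 66.9 to 50.1 CPM, 1.34-fold lower (1.24 to 1.44). CARS2 and NARS2, the cysteine and asparagine enzymes, were both 1.21-fold lower, and IARS2 and MARS2 had intervals just below 1. The intervals of AARS2, EARS2, FARS2, HARS2, LARS2, PARS2 and TARS2 included 1, with log2 ratios from -0.10 to 0.13. Of these EARS2, HARS2 and TARS2 changed sign under at least 1 alternative, as did IARS2.

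Cytosolic and mitochondrial enzymes differed in ratio by a small amount that depended on which cytosolic genes were counted. The median log2 ratio was 0.08 for the 19 cytosolic genes and -0.08 for the 16 mitochondrial ones, a difference of 0.16. From summed reads, the cytosolic ratio exceeded the mitochondrial one 1.203-fold (1.18 to 1.23), a value that no library scaling can change. For the 13 ATF4-linked genes the same quotient against the mitochondrial set was 1.32 (1.29 to 1.35), and for the 6 other cytosolic genes it was 0.893 (0.870 to 0.916).

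**Figure D3:**
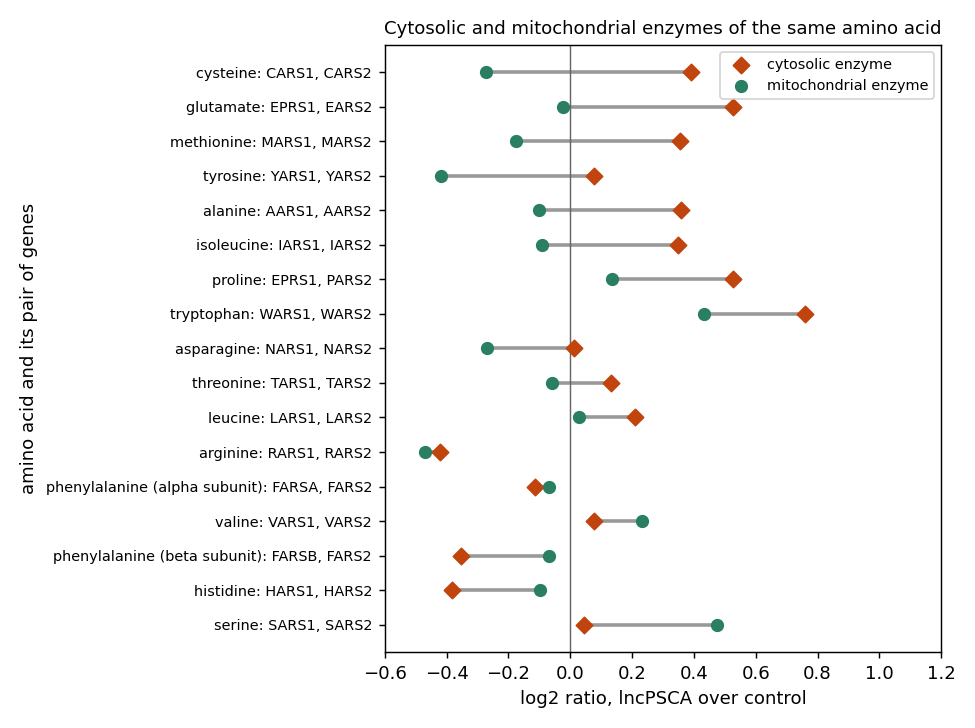
Log2 ratio of lncPSCA over control for the cytosolic enzyme (diamonds) and the mitochondrial enzyme (circles) of each amino acid, 1 row per pair, ordered by the difference. The cytosolic partner lies to the right in 12 of 17 pairs, and cysteine has the widest gap in that direction.

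Pairs that serve the same amino acid gave the same picture. The cytosolic partner had the larger ratio in 12 of 17 pairs, and the counting interval of the quotient of the ratios (Wald, log scale) lay above 1 in 11, below 1 in 4 and included 1 in 2. EPRS1 and FARS2 each stand in 2 pairs. The widest gap was that of CARS1 over CARS2, a quotient of 1.58 (1.45 to 1.73), followed by EPRS1 over EARS2 at 1.46 (1.36 to 1.58), MARS1 over MARS2 at 1.45 (1.28 to 1.63) and YARS1 over YARS2 at 1.41 (1.29 to 1.54). For tryptophan both partners had ratios above 1, and WARS1 exceeded WARS2 by a quotient of 1.25 (1.08 to 1.45). For arginine both were below 1, and RARS1 and RARS2 could not be told apart (1.04, 0.926 to 1.16).

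In 4 pairs the order was reversed beyond counting error. SARS1 stood below SARS2 with a quotient of 0.739 (0.570 to 0.960), HARS1 below HARS2 (0.821, 0.750 to 0.898), FARSB below FARS2 (0.821, 0.741 to 0.911) and VARS1 below VARS2 (0.899, 0.834 to 0.969). The quotients with SARS2 and VARS2 carry the uncertain assignment of overlapping reads described above. HARS1 and HARS2 are neighbours on chromosome 5 that are read in opposite directions, and 184 bases of their 300-base RefSeq promoter windows coincide. They share 437 exon bases in GENCODE release 29, so their reads are not fully separable without strand.

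**Figure D4:**
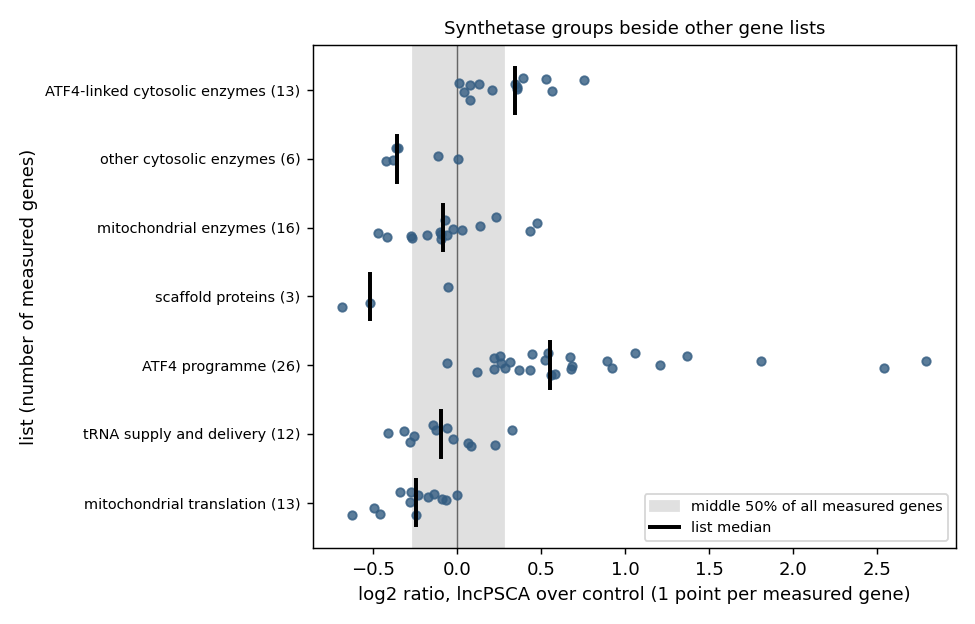
Log2 ratio of lncPSCA over control for each measured gene (points) of the synthetase groups and of 3 other lists, with the list median as a black bar; the grey band holds the middle 50% of all measured genes. The ATF4-linked synthetases have a median of 0.35, between those of the ATF4 programme (0.55) and the mitochondrial enzymes (-0.08).

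The rest of the ATF4 programme had a larger median ratio than the ATF4-linked synthetases, and the ranges overlapped. The list of this programme, too, was written with earlier results of these data known. Among all measured genes 8.82% met the looser rule as higher and 4.59% as lower, and 3.02% met the stricter rule as higher. The list has 26 measured genes, which encode stress regulators, amino acid enzymes and transporters. Of these 26, 11 met the looser rule as higher and none as lower, 6 met the stricter rule as higher, and 15 met neither. Their log2 ratios ran from -0.06 (ALDH18A1, a proline synthesis enzyme named after its value was seen) to 2.79, a range that holds all 13 ATF4-linked synthetases, with a median of 0.55 against 0.35. CHAC1, which degrades glutathione, had 365 and 2823 reads, and DDIT4, an inhibitor of mTORC1, went from 253 to 1469 CPM. SESN2, a leucine sensor, had a log2 ratio of 1.81, and SLC7A11, the cystine transporter, one of 1.37. Of the 4 kinases that phosphorylate eIF2, EIF2AK2, the double-stranded RNA sensor PKR and itself interferon-induced, met the stricter rule at 103 and 372 CPM. The 3 others met neither rule.

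Interferon-induced genes, named here as the setting of WARS1, were much higher where they were measured. All 14 measured genes of that list met the stricter rule as higher, beside 3.02% of all measured genes. This count is partly built in. CXCL10 (0.0948 and 14.3 CPM), GBP1 (0.379 and 6.85) and GBP2 (0.521 and 1.70) passed the minimum only through the lncPSCA library. GBP1 and GBP2 are named after their values were seen. The median log2 ratio of the 14 was 2.75 and the smallest value 1.44. IDO1, also on the list, had 0 reads in both libraries. CXCL10 had 2 and 337 reads, OAS1 82 and 5046, ISG15 1077 and 37960, and IFIT1 366 and 8116. WARS1 lay below all measured genes of the list. What share of the WARS1 difference moves with this list and what share with the ATF4 programme was not tested.

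Genes for tRNA maturation, export and delivery had a median log2 ratio nearer 0 than genes for mitochondrial translation. Among the former, 12 were measured and none met a size rule, beside 8.82% of all measured genes higher and 4.59% lower by the looser one. The median of the 12 was -0.09, or 0.019 when centred along mean expression, and the counting interval lay above 1 for 2 and below 1 for 4. EEF1A1, which carries charged tRNA to the ribosome, was at 8790 and 7945 CPM, and its exchange factor EEF1B2 at 784 and 590 CPM. Of 13 mitochondrial translation genes, the counting interval lay below 1 for 8 and above 1 for none. Among all measured genes these shares were 32.1% and 27.0%. None of the 13 had a log2 ratio above 0, beside 48.1% of all measured genes, and their median was -0.25. The highest, TUFM (-0.0006, named after its value was seen), had 442 CPM in both libraries, so its sign depends on the scaling. In that list MTFMT, which formylates the mitochondrial initiator tRNA, met the looser rule as lower at 23.2 and 15.0 CPM, a log2 ratio of -0.63.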

How the data were processed

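RNA sequencing of 2 HGC-27 cultures gave 1 table in which the authors deposited raw read counts per Ensembl gene, whole numbers with a different total in each library. The submitters' processing notes name TopHat2, HTSeq and the build hg19 but no settings, and the annotation release and strand mode were not found in the labels or headers.

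Symbols were matched for 52181 identifiers (81.9%). Libraries were scaled by TMM (edgeR 4.0.16). The log2 ratio used a pseudocount of 1 and folds used none. Counting intervals are 95% Clopper-Pearson intervals on a gene's reads; they cover counting error only, and without molecular identifiers repeated reads of 1 molecule cannot be recognised. With 1 library per group no test was possible.

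Transcript lengths, GC content and gene overlaps came from GENCODE release 29 (GRCh38), matched by identifier, and promoters from RefSeq. The size rules were tested on simulated data. Named were all members, and of other lists up to 4 genes past the looser rule, or the 2 most abundant. Members and lists were chosen with earlier results of these data known. Alternatives comprised scaling by DESeq2 1.42.0, by total counts and by upper quartile, a pseudocount of 5, centring by loess, other CPM minimums and an assumed coefficient of variation.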

Additional observations from a re-analysis of the deposited data

How the results depend on the processing

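Of the 38 members, 8 changed the sign of their log2 ratio under at least 1 of 6 scalings, pseudocounts or centrings (FARSA, NARS1, QARS1, EARS2, HARS2, IARS2, TARS2 and AIMP2), and neither WARS1 nor EEF1E1 was among them. Of 228 such values, 178 stayed within the counting interval of the reported one. The number of members higher by the 1.5-fold rule was 1, and it was 3 with total counts, 3 when centred along mean expression, 2 when centred along length and GC content and 0 once a coefficient of variation of 0.2 was assumed. The number lower was 1, and 0 in the last 2 settings. The cytosolic median of 0.08 moved to 0.14 with total counts and 0.25 when centred along mean expression, where the mitochondrial median of -0.08 reversed to 0.017. The difference between ATF4-linked and other cytosolic enzymes, 0.71, was 0.56 when centred along length and GC content. The cause of these shifts was not tested. No paired analysis was possible because each group has 1 library. Depth limited SARS2, PARS2 and EEF1E1, whose intervals were the widest.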
